A study of Mus musculus with 18 samples.

Results

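The iron and heme handling genes of mouse liver described here are 10 genes, Hamp, Tfrc, Tfr2, Trf, Fth1, Ftl1, Slc40a1, Hmox1, Alas1 and Cp, of the 15572 genes in the RNA-seq table. They were chosen by name, and their transcript starts in RefSeq (GRCm38.p6, the same assembly as mm10) were used to look for ATAC-seq and H3K9me2 ChIP-seq summits in each nutritional state. The mice were C57bl/6j, either WT or with a liver-specific knockout of Jmjd1c (JMJD1C-LKO, floxed Jmjd1c crossed with albumin-Cre, which acts in hepatocytes and leaves the other cells of the liver unrecombined). JMJD1C is a histone demethylase for which H3K9me2, a mark of silent chromatin, is a reported substrate. By the labels all mice were kept on chow for 6 to 8 weeks, then fasted overnight and given a high carbohydrate diet for 6 h. The labels give no age. The sample titles separate fasted (F) from refed (R) WT livers for the peak assays. RNA-seq covered WT refed and JMJD1C-LKO refed livers with 2 libraries of pooled RNA each, ATAC-seq covered WT mice in both states and refed JMJD1C-LKO mice, and ChIP-seq covered WT mice in both states, with 2 single livers in each group. There was no H3K9me2 sample from JMJD1C-LKO mice and no RNA-seq sample from fasted mice, so RNA levels were compared only between genotypes after refeeding and the H3K9me2 lists only between states in WT mice.

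Liver takes up, stores and releases iron for the whole body. Hepatocytes secrete hepcidin (Hamp), which makes the exporter ferroportin (Slc40a1) leave the cell surface, and they make transferrin (Trf), the iron carrier of plasma. Inside cells, iron-responsive elements, short RNA hairpins bound by iron regulatory proteins when iron is low, block translation of ferritin mRNA from the 5′ UTR and protect transferrin receptor mRNA from decay through the 3′ UTR. Heme is built from glycine and succinyl-CoA, with Alas1 at the first and limiting step in liver, and it is broken down by heme oxygenase (Hmox1), which releases the iron.

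The hairpins that tie this family to iron were located by a search for a C, 5 bases, the loop CAGTGN and 5 bases that pair with the first 5 (G-T pairs allowed) in the UTRs of the main transcripts of the 7 members with an entry in the promoter table. Tfrc had 4 matches, all in its 3′ UTR on chromosome 16, Fth1 had 1 and Ftl1 had 1 in the 5′ UTR, and the other 4 genes (Hamp, Tfr2, Alas1 and Cp) had 0. They are shown because such elements tie the level or translation of a message to iron. Trf, Slc40a1 and Hmox1 were not searched, so whether they carry such elements is not shown here. Capitals mark the loop, read 5′ to 3′ on the transcribed strand.
Tfrc 3′ UTR, chr16:32631219-32631246 (plus strand): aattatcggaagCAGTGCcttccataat
Tfrc 3′ UTR, chr16:32631598-32631625 (plus strand): cattatcgggagCAGTGTcttccataat
Tfrc 3′ UTR, chr16:32631663-32631690 (plus strand): ctatatcggagaCAGTGAtctccatatg
Tfrc 3′ UTR, chr16:32631710-32631737 (plus strand): aattatcgggaaCAGTGTttcccataat
Fth1 5′ UTR, chr19:9982732-9982759 (plus strand): ttcctgcttcaaCAGTGCttgaacggaa
Ftl1 5′ UTR, chr7:45459780-45459807 (minus strand): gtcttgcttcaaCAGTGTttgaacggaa
The ferritin heavy and light chain hairpins carried the same stem letters around the loop, whereas the 4 Tfrc hairpins differed in the stem. A match describes the letters only, and binding by iron regulatory proteins was not measured.

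The targeted gene was examined first. Jmjd1c stood at 22.0 and 22.8 CPM (read counts scaled to library size, with TMM factors) in the WT libraries and at 20.03 and 20.5 CPM in the libraries labelled JMJD1C-LKO. The groups did not overlap, but the log2 fold change was -0.14 ± 0.08 (SE) and did not pass the test (adjusted p = 0.233, edgeR quasi-likelihood test). Of its transcripts, NM_001242396 had a log2 fold change of -0.81 (adjusted p = 0.208) and NM_207221 one of 0.10. The paper reports, by RT-qPCR, a larger fall of Jmjd1c mRNA in JMJD1C-LKO livers than was seen here, and no detectable protein by immunoblot. Those livers are not stated to be the ones sequenced. The position of the deleted exon was not given in the sources used here, so the RNA-seq levels do not show the recombination. The libraries are called by their labels in what follows. The 4 libraries held between 51265128 and 54400509 estimated counts.

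Of the 10 members, 4 fell in the libraries labelled JMJD1C-LKO at an adjusted p under 0.05 (Alas1, Tfrc, Ftl1 and Slc40a1), beside 13.4% of the 14151 genes tested, and 0 rose, beside 14.6%. Both JMJD1C-LKO libraries lay below both WT libraries for 5 members, beside 33.8% of the genes tested, and above both for 3, beside 33.7%. All 10 passed the filter on low counts. The median log2 fold change of the members was -0.05, beside 0.01 for all genes tested. With 1 WT library left out, the number that fell was 2 without WT library 1 and 2 without WT library 2, in both cases Alas1 and Tfrc, while the share of all genes tested that fell was 3.28% and 2.81%. When transcripts were tested in place of genes, 1 member passed (Alas1), beside 1.38% of transcripts that fell, and the adjusted p of the main transcript was 0.0649 for Tfrc, 0.0628 for Ftl1 and 0.0978 for Slc40a1. At an unadjusted p under 0.05, 2 members were higher (Tfr2 and Hmox1), and the share of all genes at that threshold was not taken. DESeq2 called 1 member higher (Tfr2), beside 12.5% of the genes it tested. The 2 libraries of a group were made from pooled RNA, so the p-values measure the spread between pools. In whole liver, a lower level per cell and fewer cells of the type that makes the RNA cannot be told apart.

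**Figure D1:**
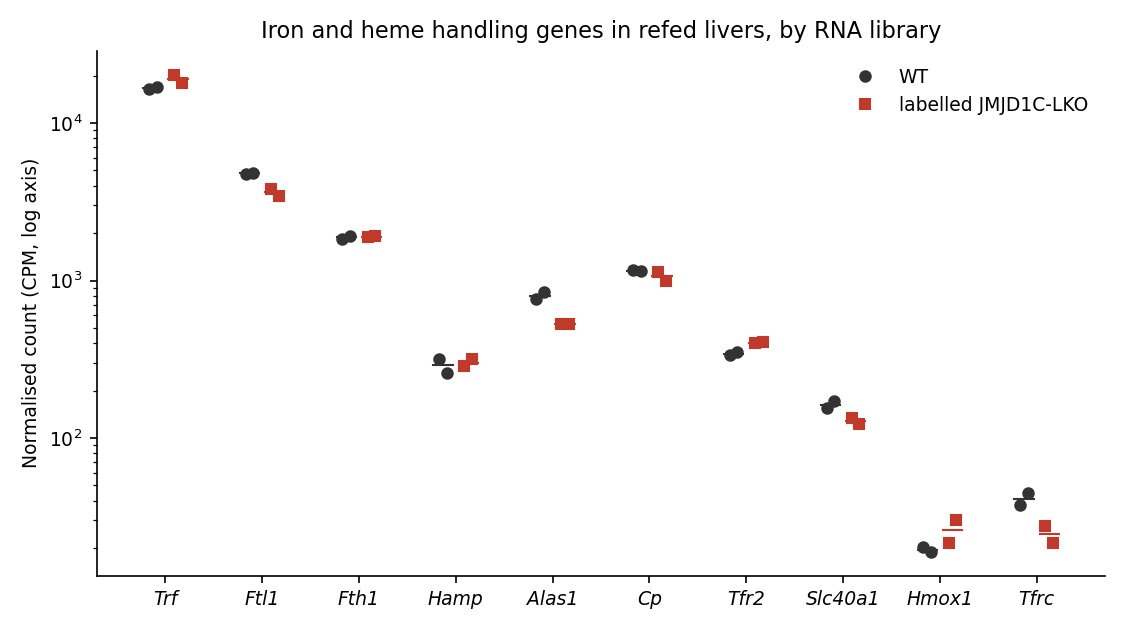
Normalised counts (CPM, log axis) of the 10 genes in the 4 refed RNA-seq libraries, ordered by level per transcript length, with points for libraries and short lines for the mean of 2. The groups separate downward for Alas1, Tfrc, Ftl1, Slc40a1 and Cp, separate upward for Trf, Tfr2 and Hmox1, and overlap for Hamp and Fth1.

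The levels of the 10 genes spanned nearly 3 orders of magnitude. Per transcript length (TPM, estimated counts over RefSeq spliced length), the WT means ran from Trf (12328 TPM, rank 8 of 15572 genes) through Ftl1 (8489 TPM), Fth1 (3439 TPM) and Hamp (1221 TPM) to Alas1 (510 TPM) and Cp (509 TPM). Below these came Tfr2 (170 TPM), Slc40a1 (83.0 TPM), Hmox1 (21.4 TPM) and Tfrc (14.5 TPM). The WT libraries of neighbours in this order did not overlap, with 1 exception, Alas1 (480 and 540 TPM) and Cp (508 and 509 TPM). Trf alone took 1.66% to 1.95% of all counts in a library.

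Hamp, the hormone, did not separate the groups. Its CPM was 319 and 259 in the WT and 286 and 316 in the JMJD1C-LKO libraries, and the log2 fold change was 0.06 ± 0.11 (adjusted p = 0.729). The JMJD1C-LKO values lay inside the WT range. Its paralog Hamp2, from the list of hepcidin regulators, stood at 38.3 and 28.6 CPM in the WT and at 77.2 and 94.7 CPM in the JMJD1C-LKO libraries. Hamp2 thus rose, with a log2 fold change of 1.36 ± 0.14 (adjusted p = 2.50e-04), and its level per length went from 0.112 and 0.103 of that of Hamp to 0.252 and 0.279.

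The pair lies in tandem on chromosome 7, and its upstream sequences are shown because these near copies differed in their change. The 250 bases before each start (RefSeq, GRCm38.p6, minus strand) were 89.7% identical, and capitals mark the letters GGCGCC, a motif reported for BMP response, which reads the same on both strands.
Hamp, chr7:30944030-30944279: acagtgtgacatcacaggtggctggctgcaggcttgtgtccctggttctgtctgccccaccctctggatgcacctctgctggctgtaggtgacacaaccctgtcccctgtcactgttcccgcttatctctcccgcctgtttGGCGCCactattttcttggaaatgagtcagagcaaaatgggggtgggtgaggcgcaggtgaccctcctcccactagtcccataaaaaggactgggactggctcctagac
Hamp2, chr7:30924182-30924431: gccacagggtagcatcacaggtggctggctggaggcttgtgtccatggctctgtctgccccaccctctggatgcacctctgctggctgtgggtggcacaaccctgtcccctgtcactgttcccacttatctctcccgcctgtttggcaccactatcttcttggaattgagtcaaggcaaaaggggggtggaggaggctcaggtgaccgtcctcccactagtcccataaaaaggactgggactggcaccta
GGCGCC was present before Hamp and not before Hamp2, and 9.59% of the 32851 upstream sequences in the table held it. Among the members with an entry, an upstream sequence of Tfrc held it too. The letters TTCNNNGAA, a motif of STAT proteins, stand unmarked in both printed sequences, and 7.02% of the upstream sequences held them. GGCGCC was 1 of 7 motifs searched, and its part in the change was not tested. The spliced transcripts of Hamp and Hamp2 were 88.1% identical. Of the 358 windows of 50 bases in the Hamp transcript, 60 (16.8%) were also in that of Hamp2. Counted by base, 49.9% of Hamp lay in stretches of at least 50 bases found unchanged elsewhere in the genome. How the counting divided reads from such stretches was not stated, so the split between Hamp and Hamp2 is uncertain.

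Of the receptors, 1 changed by the test. Tfrc, transferrin receptor 1, which brings iron-loaded transferrin into the cell, stood at 37.8 and 44.7 CPM in the WT and at 27.5 and 21.7 CPM in the JMJD1C-LKO libraries. It fell by 0.75 on the log2 scale (SE 0.12, adjusted p = 0.00253), and the groups did not overlap. Tfr2, a hepatocyte receptor that senses iron-loaded transferrin upstream of hepcidin, stood at 336 and 351 CPM in the WT and at 399 and 406 CPM in the JMJD1C-LKO libraries. Its groups did not overlap either. The log2 fold change of 0.23 ± 0.08 missed the threshold with edgeR (adjusted p = 0.0544) but passed it with DESeq2 (adjusted p = 0.0467).

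Trf, the carrier, was 16422 and 16980 CPM in the WT and 20297 and 17898 CPM in the JMJD1C-LKO libraries. Both JMJD1C-LKO values were above both WT values, yet they differed from each other by more than the WT values did, and the log2 fold change of 0.19 ± 0.10 did not pass the test (adjusted p = 0.188).

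The ferritin subunits, which assemble into the shell that stores iron, did not behave alike. Ftl1, the light chain, stood at 4738 and 4830 CPM in the WT and at 3834 and 3464 CPM in the JMJD1C-LKO libraries. It fell by 0.39 on the log2 scale (SE 0.09, adjusted p = 0.0126), and the adjusted p was 0.0900 without WT library 1 and 0.118 without WT library 2. Fth1, the heavy chain with ferroxidase activity, was 1838 and 1926 CPM in the WT and 1882 and 1917 CPM in the JMJD1C-LKO libraries. The groups overlapped, and the log2 fold change was 0.01 ± 0.08 (adjusted p = 0.923), turning to -0.02 when library size alone was used for scaling. Per length, the ratio of Ftl1 to Fth1 was 2.503 and 2.44 in the WT and 1.98 and 1.75 in the JMJD1C-LKO libraries. Ftl1 has many processed copies: 91.1% of the 970 bases of its transcript lay in stretches of at least 50 bases found unchanged elsewhere in the genome, against 23.1% for Fth1, so reads of Ftl1 may have been shared with those copies and its count is uncertain.

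Of the export pair, Slc40a1, ferroportin, was 155 and 171 CPM in the WT and 134 and 122.6 CPM in the JMJD1C-LKO libraries. It fell by 0.34 on the log2 scale (SE 0.09, adjusted p = 0.0175), without overlap. The adjusted p was 0.0680 without WT library 1 and 0.199 without WT library 2. Cp, ceruloplasmin, the copper ferroxidase of plasma that loads exported iron onto transferrin, was 1163 and 1142 CPM in the WT and 1139 and 995 CPM in the JMJD1C-LKO libraries. Both JMJD1C-LKO values were below both WT values, but the log2 fold change of -0.11 ± 0.09 did not pass the test (adjusted p = 0.398).

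Heme synthesis and breakdown gave the smallest p among the members and a value that turned on 1 library. Alas1 was 764 and 840 CPM in the WT and 532 and 528 CPM in the JMJD1C-LKO libraries. It fell by 0.60 on the log2 scale (SE 0.08, adjusted p = 0.00120), a WT level 1.51 times that of the JMJD1C-LKO libraries, and it passed the test in all 10 alternatives. Its main transcript NM_020559 fell by 0.62 (adjusted p = 0.0331 at transcript level), whereas the minor transcript NM_001291835, at 17.2 to 20.1 CPM, had a log2 fold change of 0.13 (adjusted p = 0.534). Hmox1 was 20.3 and 19.0 CPM in the WT and 21.5 and 30.4 CPM in the JMJD1C-LKO libraries. Both JMJD1C-LKO values were above the WT values but 1 only slightly, and the log2 fold change of 0.41 ± 0.14 missed the threshold (adjusted p = 0.0596). Without JMJD1C-LKO library 1 the value was 0.63 (adjusted p = 4.60e-04), and without JMJD1C-LKO library 2 it was 0.13 (adjusted p = 0.368).

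**Figure D2:**
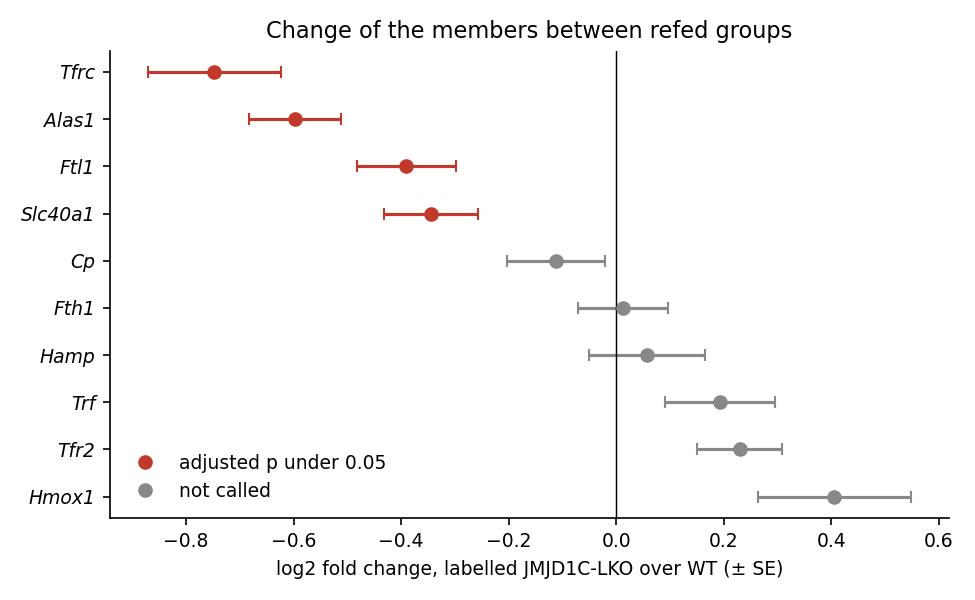
Log2 fold change between the refed libraries labelled JMJD1C-LKO and WT, with its SE, for each of the 10 genes. Tfrc, Alas1, Ftl1 and Slc40a1, from -0.75 to -0.34, passed an adjusted p of 0.05, and the other 6 genes, from -0.11 to 0.41, did not.

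Markers of other liver cells moved with the groups, among them those of macrophages, which also express Slc40a1 and Hmox1. All 13 markers of Kupffer cells and macrophages were higher (median log2 fold change 1.21), and their summed level was 360 and 375 CPM in the WT and 700 and 1004 CPM in the JMJD1C-LKO libraries. None of them was at 0 in all libraries, and Clec4f, a Kupffer cell lectin, went from 83.8 and 84.4 to 140 and 191 CPM. Of these macrophage-expressed members, Slc40a1 fell by the test and Hmox1 did not pass it, as given above. Of 11 endothelial and stellate markers 6 rose, which were all endothelial, and 0 fell, with Oit3 (log2 fold change 0.97) and Pecam1 (0.93) ahead of Stab2 (0.82), and their sums were 278 and 288 CPM in the WT and 338 and 417 CPM in the JMJD1C-LKO libraries. Erythroid markers, which would follow blood left in the liver, summed to 1265 and 718 CPM in the WT and to 1135 and 1135 CPM in the JMJD1C-LKO libraries. Of 11 tested, 2 rose (Alas2 and Klf1). Among the erythroid markers, 2 hemoglobin entries had the same count in every library, so the same reads may enter the sum under both. Hepatocyte markers summed to 122480 to 137714 CPM across the 4 libraries, and 2 of 11 rose, Tat (log2 fold change 2.15) and Cps1 (0.64). Over all genes tested, 14.6% rose and 13.4% fell. The part of these marker shifts in the members' values was not tested.

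The rest of the pathway was taken from 6 lists of iron and heme genes that hold 98 genes, of which 92 were tested. Of these, 21 rose (22.8%) and 14 fell (15.2%), beside 14.6% and 13.4% of all genes tested, with a median log2 fold change of 0.05. Without WT library 1 the counts were 10 and 1, where 5.44% of all genes tested rose and 3.28% fell, and without WT library 2 they were 7 and 0, where 4.55% rose and 2.81% fell. Of the genes named from these lists below, Lcn2, Lrp1, Scara5, Hamp2, Cisd1, Ppargc1a and Flvcr2 passed with each of the 4 libraries left out, and each of the others lost its call without at least 1 WT library.

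For iron uptake and export, 4 of 11 genes tested rose and 2 fell. Lcn2, which binds iron-carrying siderophores and is an acute phase gene, was 5.25 and 4.52 CPM in the WT and 27.5 and 31.0 CPM in the JMJD1C-LKO libraries, a log2 fold change of 2.58 ± 0.12 (adjusted p = 4.78e-06). Lrp1, the receptor for heme-hemopexin, rose by 0.63 (adjusted p = 6.53e-04), and Steap3, a ferrireductase of the transferrin cycle, by 0.36 (adjusted p = 0.0140). Steap2, a relative of Steap3, fell by 0.98 (adjusted p = 0.00266). Scara5, a ferritin receptor, was 0.174 and 0 CPM in the WT and 1.52 and 1.22 CPM in the JMJD1C-LKO libraries, too low in the WT for a fold to be stated, and it was not called by DESeq2 (adjusted p = 0.135).

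In the list of hepcidin regulators, 5 of 19 rose and 1 fell, and Hamp itself did not change by the test. The 5 include Hamp2, which is a paralog of Hamp and was listed with the regulators. Beside Hamp2, Stat3, the mediator of interleukin-6 signals, rose by 0.47 (adjusted p = 0.00246), Atoh8, a transcription factor linked to hepcidin, by 0.88 (adjusted p = 0.00361), and Hfe2, hemojuvelin, the BMP co-receptor, by 0.32 (adjusted p = 0.0162). Smad5, a transducer of BMP signals, fell by 0.28 (adjusted p = 0.0371), but not with DESeq2 (adjusted p = 0.0822), and without JMJD1C-LKO library 1 the adjusted p was 0.0781. The other 13 genes tested did not pass.

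Of 10 genes of iron sensing and storage, 3 rose and 1 fell. Cisd1, an iron-sulfur protein of the outer mitochondrial membrane, rose by 0.66 (adjusted p = 5.49e-04), Ncoa4, the receptor that delivers ferritin to lysosomes, by 0.32 (adjusted p = 0.0134), and Epas1, a hypoxia-inducible factor whose message carries an iron-responsive element, by 0.25 (adjusted p = 0.0401, and 0.0629 without JMJD1C-LKO library 1 and 0.0601 with library size alone). Pcbp1, a chaperone that hands iron to ferritin, fell by 0.36 (adjusted p = 0.0141). In mitochondrial iron and iron-sulfur assembly, 3 of 20 rose and 5 fell. The falls included Lyrm4 (-0.58), a partner of the cysteine desulfurase, Fdx1l (-0.36), a ferredoxin, and Slc25a37 (-0.33), the mitochondrial iron importer, while Fdxr (0.48), ferredoxin reductase, and Nubpl (0.71), an assembly factor of complex I, rose. Without JMJD1C-LKO library 2 the value for Fdxr was 0.28 (adjusted p = 0.0888).

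The other steps of heme synthesis were divided, with 2 of 11 genes risen and 2 fallen. Alad, which joins the product of Alas1 into porphobilinogen, fell by 0.31 (adjusted p = 0.0197). Ppargc1a, the coactivator known to induce Alas1 in the fasted liver, was 8.81 and 8.91 CPM in the WT and 25.5 and 33.1 CPM in the JMJD1C-LKO libraries. It rose by 1.72 ± 0.13 (adjusted p = 5.40e-05), the opposite direction to Alas1. Alas2, the erythroid isoenzyme, rose by 0.59 (adjusted p = 0.0210), with 0.40 without JMJD1C-LKO library 1 (adjusted p = 0.0606) and 0.37 without WT library 2 (adjusted p = 0.196). In heme breakdown and transport, 4 of 21 rose and 3 fell. Hpx, hemopexin, the plasma scavenger of heme, was 4036 and 3875 CPM in the WT and 5288 and 5093 CPM in the JMJD1C-LKO libraries, a log2 fold change of 0.39 (adjusted p = 0.0102), and Flvcr2, a membrane transporter, rose by 0.87 (adjusted p = 0.00254). Mafk, a small Maf protein that partners the regulators of Hmox1, rose by 0.46 (adjusted p = 0.00991). Fabp1, a fatty acid binding protein that also binds heme, fell by 0.40 (adjusted p = 0.0101) and Blvrb, a biliverdin reductase, by 0.34 (adjusted p = 0.0197).

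**Figure D3:**
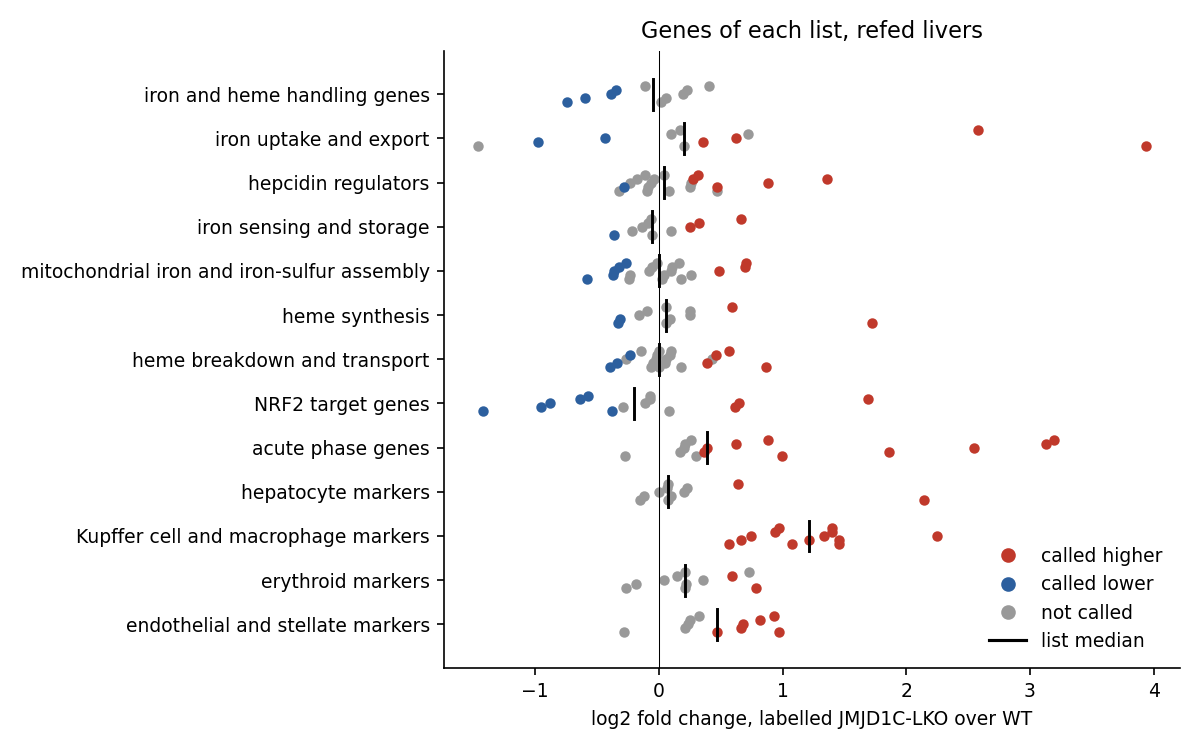
Log2 fold change of every gene tested in each list between the refed libraries labelled JMJD1C-LKO and WT, 1 point a gene, coloured by the call at an adjusted p of 0.05, with a black line at the list median. The members' called genes all lie to the left of 0, the 6 other iron and heme lists lie on both sides, and all 13 Kupffer cell and macrophage markers lie to the right.

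The accessible chromatin lists gave almost nothing at the members' starts. An ATAC-seq summit within 1000 bp of a start was found for 1 member in 1 of 6 livers, Hmox1 in WT refed liver 1. That summit lay 24 bp downstream of the start, in the 5′ UTR of exon 1, with a score (−log10 of the q-value) of 3.20 and rank 4287 of 5027. In the other 5 livers the count was 0 of 10. Among the 13825 genes tested in RNA-seq with a known start, the share with such a summit was 20.2% and 9.28% for fasted WT mice, 16.7% and 10.5% for refed WT mice, and 6.66% and 1.31% for refed JMJD1C-LKO mice. The lists were short, with 3119 to 7632 summits in a WT liver against 1450 and 825 in the JMJD1C-LKO livers, and they hold neither read counts nor depth. An absent summit therefore means that no peak was called there, not that the start was closed. Two-sided exact permutation tests of 2 livers against 2 cannot reach the threshold, so no test of these counts was made.

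Cp was the member with a recurring summit nearby. In all 4 WT livers a summit lay about 3 kb upstream of its start, at -3008 and -3011 bp in the fasted and at -2993 and -3032 bp in the refed livers, so the 4 positions fell within 39 bp. The summits were weak ones in their lists, with ranks of 4479 of 5220, 4275 of 7632, 3750 of 5027 and 2306 of 3119. For the JMJD1C-LKO livers the nearest summits were at -328092 and -452169 bp. Those lists held 1450 and 825 summits, and the Cp summit was not among the 825 strongest of any WT liver, so its absence there and the length of the lists cannot be told apart. A summit 1000 to 5000 bp upstream in all 4 WT livers was found for 46 of 13825 genes, a window chosen after the summit was seen. The level of Cp mRNA did not differ by the test, as given above.

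The 240 bases around these summits, 100 bases to either side of their span, are shown because this is where the 4 WT livers coincided. No base of it was masked as a repeat. It was searched on both strands for 7 motifs, namely CACGTG (the E-box), TGACNNNGC (the antioxidant response element), GGCGCC (the BMP element), TTCNNNGAA (STAT proteins), TTGCNNAA (C/EBP), CAAAGTCCA (HNF4) and TGTTTAC (FOXA). Capitals mark the only match, TTCNNNGAA at bases 109 to 117.
Cp upstream region, GRCm38 chr3:19953922-19954161 (plus strand): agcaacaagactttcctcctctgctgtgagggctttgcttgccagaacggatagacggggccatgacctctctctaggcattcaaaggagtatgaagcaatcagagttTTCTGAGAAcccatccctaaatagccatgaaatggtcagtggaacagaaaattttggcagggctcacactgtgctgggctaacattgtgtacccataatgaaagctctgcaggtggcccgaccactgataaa
Of the 5027 windows of the same length around the summits of WT refed liver 1, 5.77% held that motif. In the upstream sequences of the 7 members with an entry, CACGTG, to which the USF proteins bind, was found in 0 (6.02% of all upstream sequences), TGACNNNGC in 0 (10.2%), and TTCNNNGAA before Hamp and Alas1 (7.02%). These are matches of letters, and factor binding was not measured.

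H3K9me2 summits, in contrast, were called at nearly all members, apart from 1 liver. WT refed liver 1 stood apart, with 1297 summits against 7690 to 13456 in the other 3, and it had a summit at the start of 0.123% of the genes tested and of 0 of 10 members. The refed state thus rests on a single liver at these starts. In WT fasted liver 1, 8 of 10 members had a summit within 1000 bp (not Hamp and Hmox1), in WT fasted liver 2 all 10 had one, and in WT refed liver 2, 9 had one (not Hamp). The corresponding shares of all genes tested were 51.6%, 74.1% and 61.6%. Among the 4823 genes at least as abundant as Hmox1, the least abundant member in CPM, they were 82.3%, 95.3% and 89.9%, and 0.166% in WT refed liver 1. The members' counts were near these shares of abundant genes. In the other 3 livers the share was higher among abundant genes than among all genes tested. A summit in these lists therefore does not show that a gene was silent.

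The summits lay mostly just inside the genes. Alas1 had among the strongest ones, in intron 1 at 364 and 509 bp downstream of the main start in the fasted livers (ranks 87 of 7690 and 134 of 13456) and at 401 bp in WT refed liver 2 (rank 667 of 9929). Fth1 had ranks of 95 and 351 in the fasted livers and 147 in WT refed liver 2, at 387, 305 and 362 bp, in intron 1 or in the coding part of exon 1. These were 2 of the abundant members, of which Alas1 fell and Fth1 did not differ by the test between genotypes.

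Ftl1 had its strongest summit farther in, at 832 and 841 bp in the fasted livers (intron 2) and at 757 bp in WT refed liver 2 (exon 2), with ranks of 1064, 1342 and 320. A second summit lay upstream, at -365 bp in WT fasted liver 2 and -499 bp in WT refed liver 2. Trf had summits at 539, 314 and 444 bp in intron 1, and Cp at 998, 1029 and 523 bp in intron 1. The positions of the strongest summit differed between these livers by 506 bp at Cp and by 84 bp at Ftl1.

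At the receptors, Tfrc had summits in intron 1 at 356 and 315 bp in the fasted livers and at 380 bp in WT refed liver 2, and Tfr2 had them upstream of its main start, at -397, -558 and -368 bp. Those of Tfr2 lay downstream of an earlier annotated start, that of NM_001289509 and NM_015799, by 322 bp in WT fasted liver 2. Slc40a1 had weaker ones in the 5′ UTR of exon 1, at 192, 249 and 232 bp, with ranks of 5038 of 7690, 6436 of 13456 and 8156 of 9929, and a further summit at -283 bp in WT refed liver 2 (rank 6894 of 9929). Hmox1 and Hamp were at the weak end. Hmox1 had a summit in intron 1 at 252 bp in WT fasted liver 2 (rank 8045 of 13456) and at 180 bp in WT refed liver 2 (rank 9467 of 9929). Hamp had a single summit, at 203 bp in intron 1 of WT fasted liver 2, with rank 12469 of 13456, and in WT fasted liver 1 and WT refed liver 2 the nearest ones lay at -12343 and -12550 bp, by the start of Usf2.

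**Figure D4:**
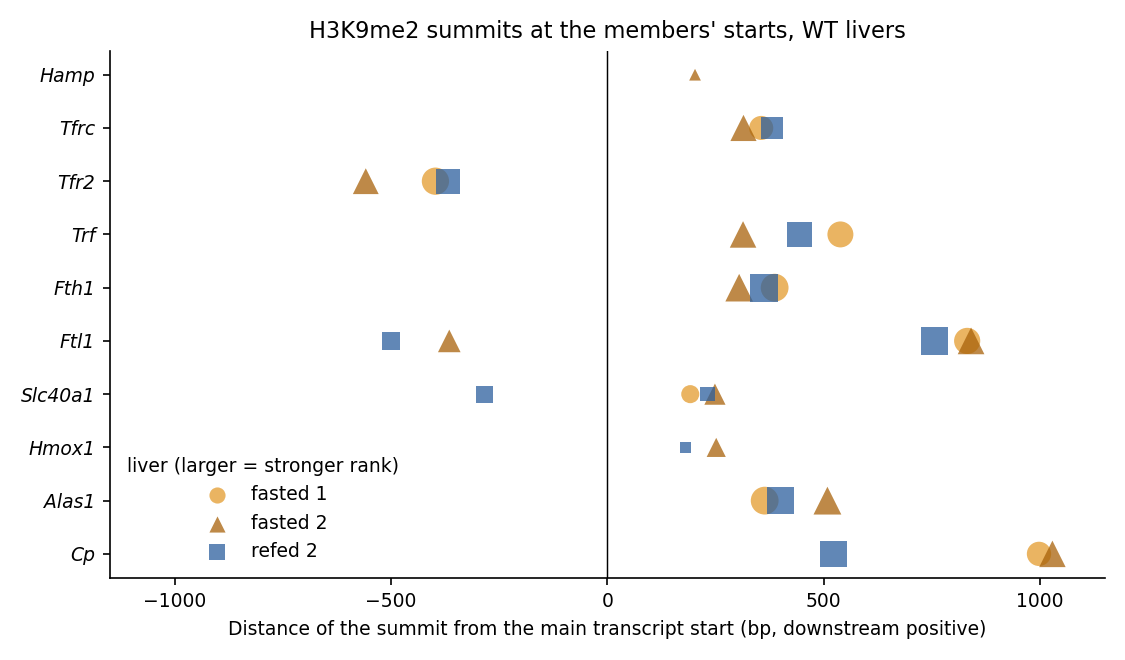
Distance of each H3K9me2 summit within 1000 bp of a member's start from the start of its main transcript, in base pairs (downstream positive), for WT fasted livers 1 and 2 and WT refed liver 2, with larger symbols for stronger ranks within a liver. WT refed liver 1 had 0 such summits, and most summits of the other livers lie 180 to 1029 bp downstream. Those of Tfr2 lie upstream of its main start but downstream of an earlier annotated start.

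The same number of strongest summits (1297) was also taken from every liver. Then 5 and 2 members had one in WT fasted livers 1 and 2, and 0 and 3 in WT refed livers 1 and 2. In either liver these were Tfr2, Trf, Fth1, Ftl1 and Alas1 (fasted) and Fth1, Ftl1 and Alas1 (refed). The share of all genes at this setting was not taken. Fasted and refed lists could not be compared by signal, since no read counts are in them, and with 1 refed liver at 0 a difference between the states was not tested.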

How the data were processed

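The data were RNA-seq, ATAC-seq and H3K9me2 ChIP-seq of mouse liver. The RNA-seq table as deposited by the authors holds unscaled estimated counts for each RefSeq transcript (65.7% to 66.0% of them in a library are fractional); the aligner and counter behind that table are not given in the sources used here, although the submitters' processing notes list HISAT2 and Partek among other tools. In ATAC-seq and ChIP-seq, the authors ran MACS2 2.1.1 on each liver (mm10) and deposited single-base summits with the −log10 of the q-value as score. The lists hold no counts, so their depth is unknown, and scores were compared by rank within a liver. A deposited table with the authors' own comparison (p-values and fold changes) was not used, and the input libraries have no summit list of their own here.

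Counts were summed per gene, rounded, filtered with filterByExpr and tested with edgeR 4.0.16 (TMM, quasi-likelihood F test, Benjamini-Hochberg over 14151 genes); SEs are the size of the log2 fold change over the root of F. All tables were adjusted over all genes tested. The 2 libraries of a group differed far beyond sampling noise. Alternatives were RLE scaling, library size alone, no filter, DESeq2 1.42.0, the replicate number as a block, each library left out, and transcripts in place of genes. A summit belonged to a gene within 1000 bp of any RefSeq start; windows of 500 and 2500 bp, the gene body, a score of at least 5, equal list lengths and each liver left out were alternatives. The tests were tried on simulated counts and summits. TPM used RefSeq lengths, which 98.8% of transcripts had. Sequences came from RefSeq GRCm38.p6; the promoter table has no entry for Trf, Slc40a1 and Hmox1. The members, the other lists (from each at most 5 genes past the threshold, by p, are named) and the windows were chosen with earlier results of these data known. One gene of the other lists is not reported here by name.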

Additional observations from a re-analysis of the deposited data

How the results depend on the processing

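Of 100 alternative values for the 10 members, 85 kept direction and side of the threshold, 7 no longer passed it, 4 passed it newly and 4 changed sign, all of these for genes that did not pass in any case. Those were Hamp with a library left out (-0.091 to 0.21, -0.017 without JMJD1C-LKO library 2) and Fth1 with library size alone (-0.024) and with a library left out (-0.023 to 0.043). Alas1 passed in 10 of 10 alternatives and Tfrc in 9, Ftl1 and Slc40a1 in 7 each. The number of members that fell, 4, was 1 at transcript level, beside 1.38% of transcripts that fell, and it changed with a library left out. The number that rose, 0, was 1 with DESeq2 (Tfr2), beside 12.5% of the genes it tested, and it too changed with a library left out. With the replicate number as a block the number that rose was 1 (Hmox1, adjusted p = 0.0154), beside 15.6% of all genes tested. Same-numbered libraries did not deviate together (r = -0.00461 across 14151 genes), so the replicate numbers do not pair the samples. In the 6 other iron and heme lists, 0 to 20 fell and 7 to 23 rose with a library left out. At the members' starts, the ATAC count in either liver was 1 in the WT fasted group (Cp) and 2 in the WT refed group (Slc40a1 and Hmox1) over gene bodies. In the WT refed group it was 0 with a score of at least 5, 0 with equal list lengths, and 0 to 1 with a liver left out, and in the JMJD1C-LKO group it was 1 within 2500 bp (Ftl1). The H3K9me2 count in either liver went from 10 to 5 (fasted) and from 9 to 3 (refed) with equal list lengths. Single livers then gave 5 and 2 (fasted) and 0 and 3 (refed). With a liver left out the count was 8 to 10 and 0 to 9. The cause of these changes was not tested.

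With 2 pooled libraries a group, p-values rest on few degrees of freedom. Summit lists carry no depth, and those of the JMJD1C-LKO livers and of WT refed liver 1 were short.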

Other observations

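Lists next to the iron and heme pathway moved with the libraries labelled JMJD1C-LKO. Of 15 acute phase genes, 9 rose and 0 fell (median log2 fold change 0.39), beside 14.6% and 13.4% of all genes tested. Saa1, serum amyloid A, was 11.6 and 13.3 CPM in the WT and 72.6 and 73.7 CPM in the JMJD1C-LKO libraries, a log2 fold change of 2.55 ± 0.09 (adjusted p = 1.43e-06, edgeR quasi-likelihood test). Orm1, orosomucoid, was 461 and 399 CPM in the WT and 874 and 843 CPM in the JMJD1C-LKO libraries and rose by 0.996 (adjusted p = 1.65e-04). Hamp, which the same signals are known to induce, overlapped between the groups.

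Of 14 genes known as targets of NRF2, the factor that also drives Hmox1 and the ferritins, 6 fell and 3 rose (median log2 fold change -0.20), beside the same 13.4% and 14.6%. Gclc, the catalytic subunit of the enzyme that limits glutathione synthesis, was 403 and 385 CPM in the WT and 173 and 121.7 CPM in the JMJD1C-LKO libraries and fell by 1.42 (SE 0.14, adjusted p = 2.10e-04). Its partner Gclm fell by 0.95 (adjusted p = 5.23e-04), and Me1 and Tkt fell by 0.88 and 0.63. The 3 genes that rose were not among the 5 with the smallest p and are not named. The number that fell was 5 without WT library 1 and 4 without WT library 2, and the number that rose was 1 without JMJD1C-LKO library 2 and 0 without either WT library.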
